A study of Mus musculus with 4 samples.

Results

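The 9 genes described here encode enzymes that turn squalene into cholesterol: *Sqle*, *Lss*, *Cyp51*, *Tm7sf2*, *Msmo1*, *Nsdhl*, *Hsd17b7*, *Sc5d* and *Dhcr7*. They were chosen by symbol for their place in the pathway, with earlier results of these data known. All 9 were found among the 35739 genes of the table of TPM (transcript abundance scaled to the total and to transcript length). RNA-seq was performed on whole liver, with 1 library for each WT animal (replicates 2 and 3) and each *Usp21* KO animal (replicates 1 and 3), so that *n* = 2 per genotype throughout. *Usp21* encodes a deubiquitinase, an enzyme that removes ubiquitin from other proteins. The mice were littermates of 10 to 11 weeks on a normal diet and a 12 h light cycle, and their sex, the hour of killing and the fed state were not given in the sources used here. The KO allele was made in ES cells of a strain other than B6, lacks exons 3 and 4 in every tissue (a constitutive deletion by Cre, whose driver was not named) and was carried on a mixed background. No treatment of either genotype was named.

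Cholesterol is built in the endoplasmic reticulum. The mevalonate pathway makes squalene, SQLE adds oxygen to it, LSS closes the rings to form lanosterol, and the remaining enzymes remove methyl groups, shift or reduce double bonds and end at cholesterol. The liver is a main site of this synthesis. When membrane sterol falls, SCAP carries the transcription factor SREBP2 to the Golgi, where it is cleaved, and the freed fragment raises transcription of nearly the whole pathway. SREBP2 binds sterol regulatory elements and acts with NF-Y, which binds CCAAT boxes, and with Sp1, which binds GC-rich boxes. When sterol is plentiful, INSIG proteins hold SCAP back and the pathway is turned down.

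The genes lie on 9 chromosomes (GRCm38, GENCODE annotation), and all are protein coding. *Sqle* (ENSMUSG00000022351) spans 59315077 to 59331192 of chromosome 15, *Lss* (ENSMUSG00000033105) 76531588 to 76557138 of chromosome 10, and *Cyp51* (ENSMUSG00000001467) 4081145 to 4104746 of chromosome 5. *Tm7sf2* (ENSMUSG00000024799) spans 6062821 to 6068373 of chromosome 19, *Msmo1* (ENSMUSG00000031604) 64718139 to 64733792 of chromosome 8, and *Nsdhl* (ENSMUSG00000031349) 72918557 to 72958514 of chromosome X. *Hsd17b7* (ENSMUSG00000026675) spans 169949535 to 169969241 of chromosome 1, *Sc5d* (ENSMUSG00000032018) 42251595 to 42264256 of chromosome 9, and *Dhcr7* (ENSMUSG00000058454) 143823145 to 143848410 of chromosome 7. *Hsd17b7* is the member near the deleted gene, 1.31 Mb from *Usp21* on chromosome 1. Of the 31-base stretches in the transcripts of *Tm7sf2*, 12.9% also occur in other genes, mostly in *Vps51*, which overlaps it on the same strand, so its TPM is less certain than that of the other members, for which this share was between 0 and 2.75%. *Lss* and *Cyp51* overlap the antisense genes *4930483K19Rik* and *Akap9*, and no strand setting was given in the sources used here, so reads from such partners cannot be told apart.

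RefSeq promoters (GRCm38.p6, 250 bases before to 50 bases after the start site) were given for 8 of the 9 members, *Sqle* being the one not given, and *Dhcr7* had 3 start sites, which made 10 promoters. A CCAAT box was found, on either strand, in 8 of 8 members (8 of 10 promoters), compared with 41.1% of 27025 genes and 37.4% of 32851 promoters in the whole table. A GGGCGG box was found in 8 of 8 members as well (9 of 10 promoters), compared with 38.2% of all genes. The E-box CACGTG was present in 3 of 8, *Hsd17b7*, *Sc5d* and *Dhcr7* (8.09% of all genes), and the sterol regulatory element in its strict form TCACNCCAC in 0 of 8 (1.44% of all genes). Of 8 genes of the mevalonate pathway upstream, 6 had a promoter in the table, and 5 held a CCAAT box, 5 a GGGCGG box, 0 the E-box and 1 (*Hmgcs1*) the sterol regulatory element. No match of one motif overlapped a match of another among the 38 matches in the members. These are matches of letters in one short window, described with no test, and they do not show binding.

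The stretch around the CCAAT box nearest the start site is shown for each of the 8 members because this box, like the GGGCGG box, was found in each of them. The gene strand is given 5′ to 3′ and the box is in capitals, as CCAAT or as its reverse complement ATTGG. For *Dhcr7* the stretch belongs to the start site farthest downstream, the 1 of its 3 that held the box.
Lss, chr10:76531523-76531567, plus strand: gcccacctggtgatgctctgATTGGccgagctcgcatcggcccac
Cyp51, chr5:4104702-4104746, minus strand: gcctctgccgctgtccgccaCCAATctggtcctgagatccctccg
Tm7sf2, chr19:6067873-6067917, minus strand: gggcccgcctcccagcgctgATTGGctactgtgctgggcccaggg
Msmo1, chr8:64733609-64733653, minus strand: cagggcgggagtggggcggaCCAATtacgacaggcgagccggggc
Nsdhl, chrX:72918481-72918520, plus strand: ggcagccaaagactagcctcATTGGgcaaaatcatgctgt
Hsd17b7, chr1:169969206-169969237, minus strand: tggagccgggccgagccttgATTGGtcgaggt
Sc5d, chr9:42264301-42264344, minus strand: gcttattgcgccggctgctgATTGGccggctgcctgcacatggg
Dhcr7, chr7:143830145-143830189, plus strand: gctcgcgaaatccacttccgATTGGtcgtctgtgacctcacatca

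The last base of these boxes lay between 8 (*Hsd17b7*) and 58 (*Lss*) bases before the RefSeq start site. The GENCODE spans given above take in the stretches shown for *Cyp51*, *Tm7sf2*, *Msmo1*, *Hsd17b7* and *Dhcr7*, so the distances hold for the RefSeq start sites only. The promoter of *Msmo1*, the member with the largest difference between genotypes, held 3 CCAAT boxes and 2 GGGCGG boxes within 120 bases. That of *Hsd17b7*, with the smallest difference, also held several of each, and no link of boxes to fold changes was tested. The *Msmo1* stretch, from 165 to 46 bases before the start site, is shown here with these boxes in capitals.
Msmo1, chr8:64733624-64733743, minus strand: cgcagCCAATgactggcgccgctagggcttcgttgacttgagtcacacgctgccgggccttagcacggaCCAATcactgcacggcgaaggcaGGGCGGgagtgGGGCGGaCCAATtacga

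**Figure D1:**
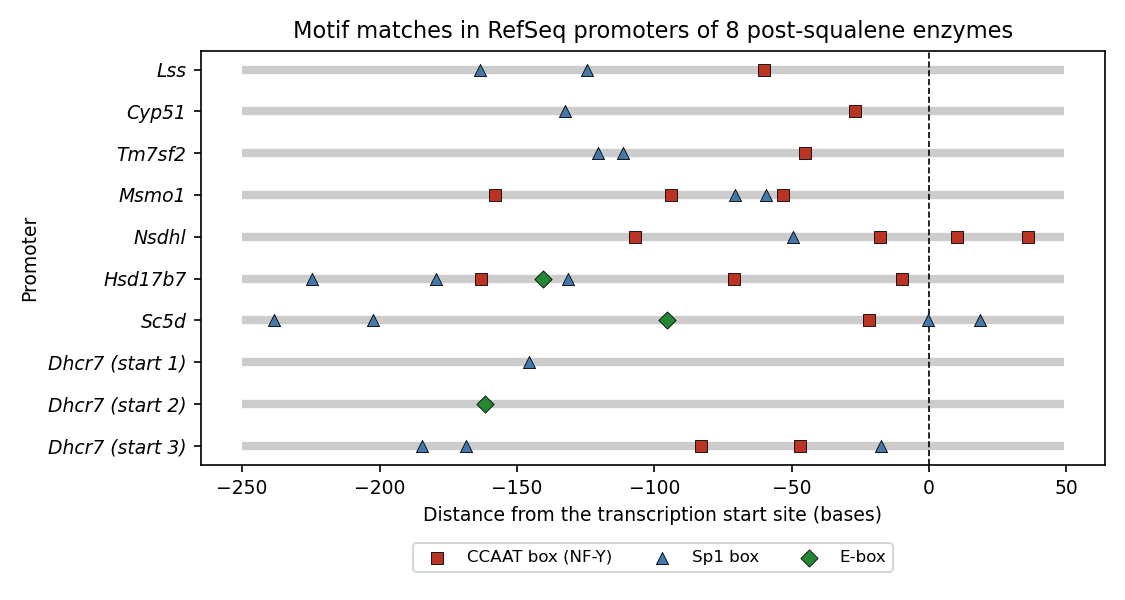
Position of CCAAT box, Sp1 box (GGGCGG) and E-box matches along the 10 promoters of 8 members, in bases from the start site (dashed line). Grey bars show the 300 bases searched, *Dhcr7* appears once for each of its 3 start sites, and every member has at least 1 CCAAT box and 1 GGGCGG box.

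The targeted gene was checked first. *Usp21* (ENSMUSG00000053483, chromosome 1, 171281945 to 171287991) had 4.07 and 6.29 TPM in WT, against 1.64 and 2.93 in KO, so that the KO pair lay below the WT pair (log2 fold change −0.92, SE 0.33, adjusted *p* = 0.464 by limma). A gene-level TPM still counts the exons that the deletion leaves in place. Albumin and the other hepatocyte markers were above 0 in every library (6 of 6). Of 4 adipocyte markers, *Plin1* and *Lep* were listed at 0 in all 4 libraries, *Adipoq* was at 0.224 TPM in KO replicate 3 and at 0 in the others, and *Cidec* had 0.684 and 0.129 TPM in WT, against 0.325 and 1.29 in KO. TPM keeps no record of depth. The deposited CPM table allowed between 102898 and 148164 reads per library to be recovered. Because it lists many genes of high TPM at 0, these totals need not be the depth behind TPM.

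Transcripts of all 9 enzymes were detected in every library. Fold changes below are KO minus WT on the log2(TPM + 1) scale, *p*-values are from limma fitted over the 9581 genes that averaged 1 TPM or more, and adjusted *p*-values follow Benjamini and Hochberg over all of them. On this scale the median of all tested genes was 0.15.

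*Sqle*, which encodes the oxygenase that acts first on squalene, one of the rate-limiting steps of the pathway, had 4.39 and 7.02 TPM in WT, against 4.84 and 1.30 in KO. The genotypes overlapped, since KO replicate 1 lay between the WT libraries and KO replicate 3 was far below them. The log2 fold change was −0.84 (SE 0.49, 95% confidence interval −2.07 to 0.38, adjusted *p* = 0.547). It was −0.17 without KO replicate 3 and −1.52 without KO replicate 1.

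*Lss*, which encodes the cyclase that forms lanosterol, had 6.32 and 11.1 TPM in WT, against 3.44 and 3.37 in KO. The KO pair lay below the WT pair, and its libraries differed from each other by 0.02 on the log2 scale, the closest KO pair of the 9. The mean was 8.69 ± 3.35 TPM in WT and 3.41 ± 0.05 TPM in KO (SD, *n* = 2), with a log2 fold change of −1.09 (SE 0.30, interval −1.85 to −0.33, unadjusted *p* = 0.0129). The adjusted *p* was 0.464. With 1 library left out, the log2 fold change of *Lss* was −1.10 without KO replicate 1, −1.08 without KO replicate 3, −1.45 without WT replicate 2 and −0.73 without WT replicate 3, with unadjusted *p* = 0.0591, 0.0634, 0.00886 and 0.0797 by limma.

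*Cyp51* encodes the cytochrome P450 that removes a methyl group from lanosterol. It had 29.9 and 35.8 TPM in WT, against 31.4 and 22.8 in KO, with KO replicate 1 again between the WT libraries. The log2 fold change was −0.28 (SE 0.23, interval −0.84 to 0.28, adjusted *p* = 0.654), or −0.056 with KO replicate 3 left out.

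*Tm7sf2* encodes a reductase for the double bond left by CYP51. It had 69.8 and 62.3 TPM in WT, against 72.9 and 51.4 in KO, so that KO held both its highest and its lowest library. The log2 fold change was −0.11 (SE 0.22, interval −0.66 to 0.44, adjusted *p* = 0.868), or 0.14 with KO replicate 3 left out.

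The next 3 enzymes work as a set that strips methyl groups from the fourth carbon of the sterol. *Msmo1*, the methyl oxidase of the set, had 76.0 and 121.6 TPM in WT, against 47.1 and 22.5 in KO. The KO pair lay below the WT pair, and the highest and lowest libraries of *Msmo1* differed 5.40-fold. The mean was 98.8 ± 32.2 TPM in WT and 34.8 ± 17.4 TPM in KO (SD, *n* = 2), a ratio of 0.353. The log2 fold change of −1.53 was the lowest of the 9 (SE 0.40, interval −2.52 to −0.53, unadjusted *p* = 0.00987, adjusted *p* = 0.464), or −1.01 with KO replicate 3 left out.

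*Nsdhl*, the dehydrogenase that follows, had 19.1 and 14.9 TPM in WT, against 19.1 and 7.57 in KO. KO replicate 1 was level with WT replicate 2 (0.00058 apart on the log2 scale), and KO replicate 3 was far below the other libraries. The log2 fold change was −0.44 (SE 0.42, interval −1.50 to 0.61, adjusted *p* = 0.697), with 0.17 in place of it when KO replicate 3 was left out.

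*Hsd17b7*, the ketoreductase that closes the set, had 6.22 and 6.34 TPM in WT, against 7.64 and 5.90 in KO. It varied least of the 9 (1.29-fold between its highest and lowest libraries) and was the only member with a higher mean in KO, by 0.09 on the log2 scale (SE 0.23, interval −0.49 to 0.66, adjusted *p* = 0.900). The sign was not fixed, since it was −0.031 after upper quartile scaling of the libraries and −0.076 without KO replicate 1. The strain of the DNA around *Hsd17b7* in the KO mice was not tested.

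*Sc5d* encodes the desaturase that adds a double bond to the B ring. It had 123.4 and 161.9 TPM in WT, against 153.5 and 94.8 in KO, which overlapped (log2 fold change −0.23, SE 0.28, interval −0.93 to 0.47, adjusted *p* = 0.771). Without KO replicate 3 it was 0.12.

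*Dhcr7*, which encodes the reductase that yields cholesterol in the last step, had 15.5 and 24.3 TPM in WT, against 14.1 and 9.26 in KO. The groups did not overlap, although KO replicate 1 was below WT replicate 2 by only 0.13 on the log2 scale. The log2 fold change was −0.71 (SE 0.31, interval −1.48 to 0.05, unadjusted *p* = 0.0626, adjusted *p* = 0.479), and leaving out WT replicate 3 or KO replicate 3 gave −0.41 or −0.43.

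**Figure D2:**
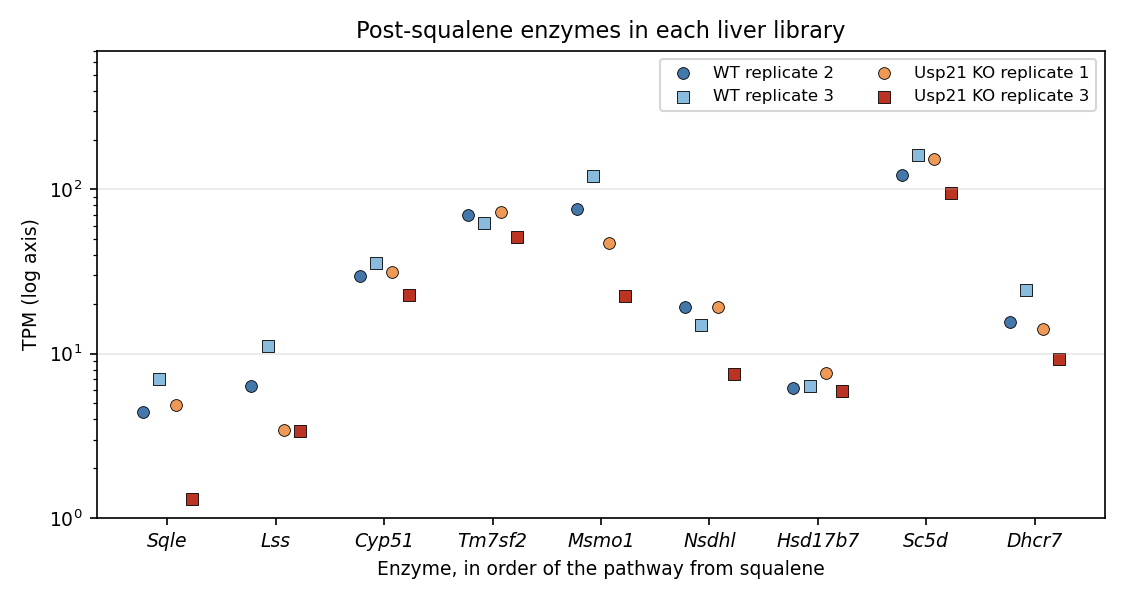
TPM (log axis) of each of the 9 enzymes in each liver library, in pathway order from squalene, with 1 point per mouse and no mean drawn. The red squares of KO replicate 3 are the lowest point in all 9 columns, and only *Lss*, *Msmo1* and *Dhcr7* have both KO points below both WT points.

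Levels differed more between enzymes than between mice, which differed at most 5.41-fold for any one enzyme. The mean over the 4 libraries was 133.4 TPM for *Sc5d*, 66.8 for *Msmo1*, 64.1 for *Tm7sf2*, 30.0 for *Cyp51*, 15.8 for *Dhcr7*, 15.2 for *Nsdhl*, 6.53 for *Hsd17b7*, 6.05 for *Lss* and 4.39 for *Sqle*. TPM is a level per transcript length, and on it *Sc5d* was 30.4-fold above *Sqle*. Of the 8 pairs of neighbours in this order, *Tm7sf2* and *Cyp51* alone had ranges that did not overlap (lowest *Tm7sf2* library 51.4, highest *Cyp51* library 35.8). The order was not the same in both genotypes. *Msmo1* was above *Tm7sf2* in WT (means 98.8 and 66.1 TPM) and below it in KO (34.8 and 62.1 TPM), and *Lss* was above *Hsd17b7* in WT (8.69 and 6.28 TPM) and below it in KO (3.41 and 6.77 TPM). *Sqle* and *Lss*, which encode the first steps, were at the low end together with *Hsd17b7*.

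As a group, 8 of the 9 enzymes had a lower mean in KO, compared with 33.3% of all tested genes. The median log2 fold change was −0.44, or −0.59 relative to the median of all tested genes. Upper quartile scaling moved the median of all genes from 0.15 to 0.04 and put all 9 enzymes lower, with the group median at −0.61 relative to all genes. The 33.3% belongs to the unscaled fit, and no share of all tested genes is given for this scaling. Groups that did not overlap, lower in KO, were found for 3 enzymes, *Lss*, *Msmo1* and *Dhcr7*, against a background of 10.9% of tested genes. A level at least 2-fold lower in KO was found for *Lss* and *Msmo1*, 2 of 9, against 1.10% of tested genes. The same 2 genes had an unadjusted *p* under 0.05 with a lower level in KO, against 2.04% of tested genes.

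None of the enzymes passed the adjusted threshold. By limma with Benjamini-Hochberg adjustment 0 of the 9 had an adjusted *p* under 0.05, where 0.0835% of tested genes (8 genes) did. On simulated data the same fit recovered 0 of 200 genes changed by 1 on the log2 scale, and 198 of 200 changed by 3. An adjusted *p* above 0.05 therefore cannot be read as no change at differences near 1. On the recovered reads, edgeR and DESeq2 could be fitted to 2 members and called 0, with 0 at an unadjusted *p* under 0.05. With at most 9 reads of *Sqle* and 2 of *Lss* in a library, these 2 fits could not show a difference and add nothing to the result from TPM. An exact permutation test of 2 libraries against 2 cannot go below *p* = 0.333, so a single gene could not have passed it. The confidence intervals of the 6 enzymes whose groups overlapped each ran at least from −0.49 to 0.28 on the log2 scale, so with 2 mice per genotype a lower or a higher level in KO is compatible with each of them. Without WT replicate 3, 0 of the 9 had an unadjusted *p* under 0.05 and 1 was at least 2-fold lower.

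**Figure D3:**
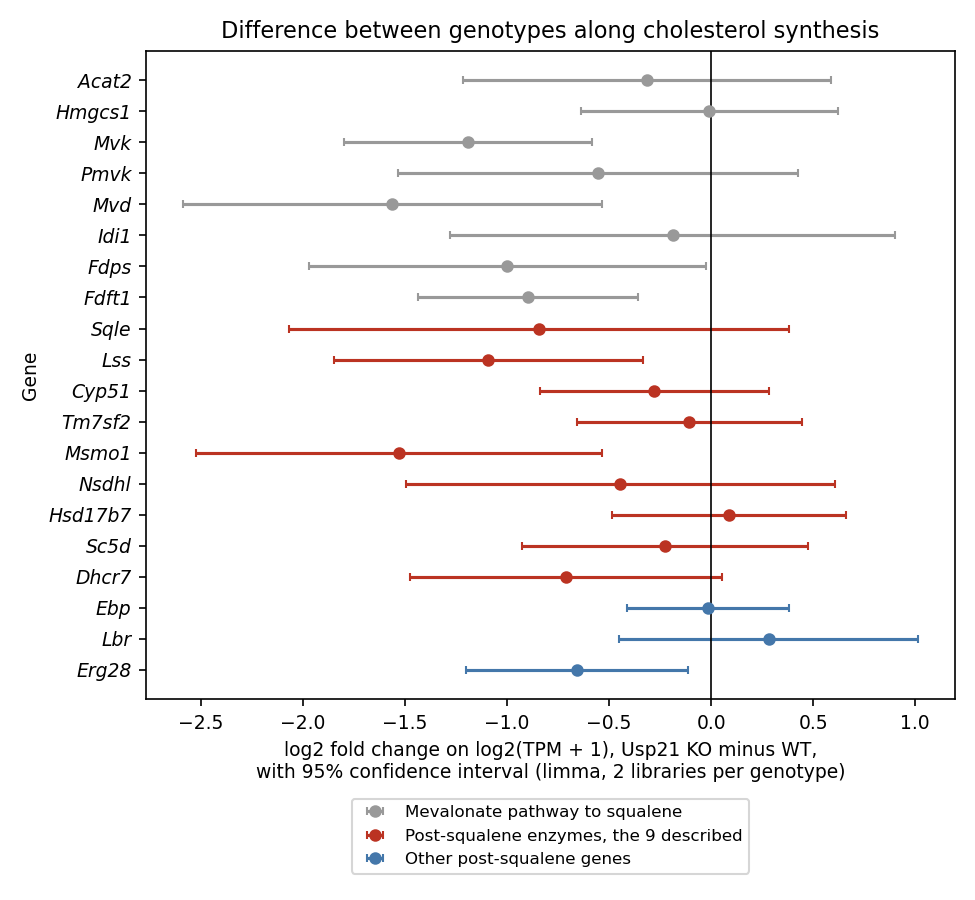
Log2 fold change (KO minus WT, log2(TPM + 1) scale) with 95% confidence interval from limma for 20 genes of cholesterol synthesis, *n* = 2 libraries per genotype. From the top are the mevalonate pathway, the 9 post-squalene enzymes and, set apart at the end, the other genes of the lower pathway. The 9 post-squalene enzymes (red) run from −1.53 (*Msmo1*) to 0.09 (*Hsd17b7*), and the intervals of *Lss* and *Msmo1* are the 2 among them that leave out 0.

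Mice of 1 genotype differed by about as much as the genotypes did. The median absolute difference over the 9 enzymes was 0.39 between the WT libraries, 0.56 between the KO libraries and 0.44 between genotypes on the log2 scale. KO replicate 3 was the lowest library for 9 of the 9 enzymes, when it was the lowest for 22.9% of all tested genes. WT replicate 3 was the highest for 6 of them (15.2% of tested genes), and KO replicate 1 for the other three, *Tm7sf2*, *Nsdhl* and *Hsd17b7* (45.9% of tested genes). The summed level of the 9 enzymes was 350.7 and 445.1 TPM in WT, against 354.1 and 218.9 in KO. KO replicate 1 thus had nearly the same sum as WT replicate 2, whereas KO replicate 3 was below all others.

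Compared pair by pair, the median of the 9 enzymes was 0.06 higher in KO replicate 1 than in WT replicate 2 on the log2 scale, where the median of all tested genes was 0.22 higher. Against WT replicate 3 it was 0.18 lower in KO replicate 1, where that of all tested genes was again 0.22 higher. In KO replicate 3 the median was lower by 0.69 than in WT replicate 2 and by 0.89 than in WT replicate 3, and all 9 enzymes were lower in both pairs, compared with 42.1% and 41.3% of tested genes, whose medians were 0.08 higher in both. Between the KO libraries themselves the median differed by 0.56, with all 9 lower in replicate 3, when 64.6% of tested genes were.

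For 6 of the 9 enzymes the KO libraries differed from each other by more than the genotypes did. The genotype difference was larger than both within-genotype differences for the other three, *Lss*, *Msmo1* and *Dhcr7*. Leaving out KO replicate 3 took the group median from −0.44 to −0.056 and the number of enzymes lower in KO from 8 to 5. Leaving out KO replicate 1 took the median to −0.99 and the number to 9. These values are not relative to all tested genes, whose share is not given for these fits. In KO replicate 1 the median of all tested genes was 0.22 higher than in each WT library, with 31.5% and 30.2% of them lower. In KO replicate 3 it was 0.08 higher, with 42.1% and 41.3% lower.

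**Figure D4:**
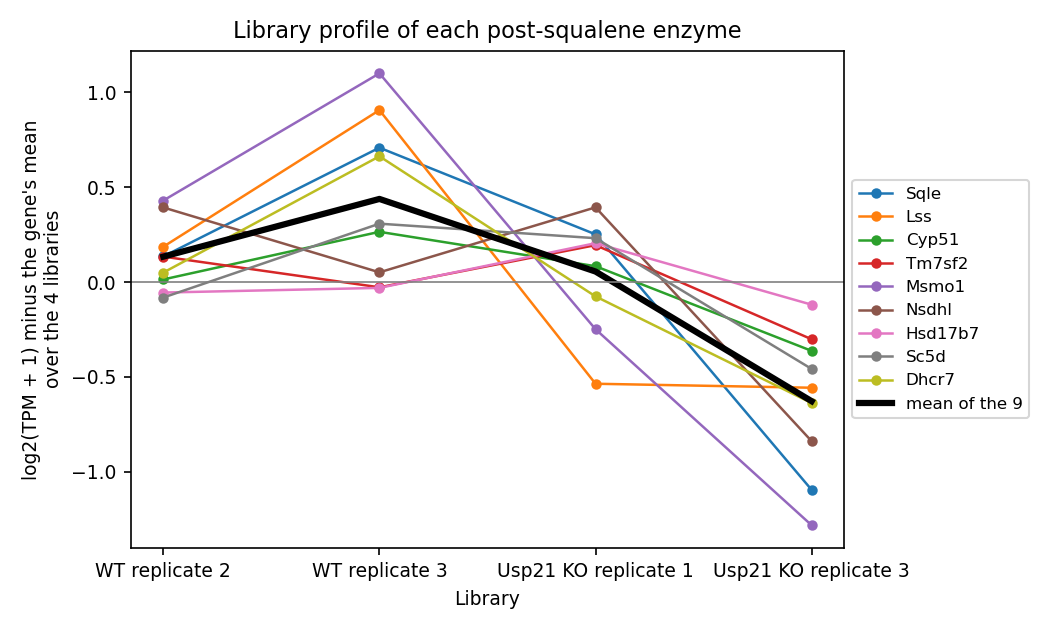
Each enzyme's log2(TPM + 1) in each library minus its own mean over the 4 libraries, with the mean of the 9 in black. Lines join the points of a gene and imply no order of mice, and the black line is at −0.63 in KO replicate 3 and at 0.06 in KO replicate 1.

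Other measures also set KO replicate 3 or WT replicate 3 apart. KO replicate 3 had the lowest summed level of 6 hepatocyte markers (45722 TPM, compared with 54899 in KO replicate 1 and with 68851 and 53491 in WT). Most of that sum was *Alb* (27475 TPM in KO replicate 3). *Alb*, *Apoa1*, *Cps1* and *Cyp2e1* were lowest in KO replicate 3, whereas *Ttr* and *Hnf4a* were lowest in WT replicate 3. KO replicate 3 had the highest sum of 6 Kupffer cell markers (135.0 TPM, compared with 51.6 in KO replicate 1 and with 88.5 and 100.03 in WT). The same library had the fewest reads recovered from the CPM table (102898), which need not be the depth behind TPM. Its summed level of 8 genes of the fasting response was the highest (1067 TPM, compared with 535.1 to 698.7 in the other libraries). WT replicate 3 had 611.4 TPM of *Thrsp*, a lipogenic gene, where the other libraries had between 36.7 and 75.0, and the smallest share of TPM in mitochondrial genes (11.6%, compared with 15.5 to 16.5%). Of 10 marker lists of cell types, that of cholangiocytes was the one whose summed level did not overlap between genotypes, with 14.6 and 16.2 TPM in WT, against 38.3 and 24.5 in KO, and 4 of its 6 markers were above 0 in every library. Most of this sum was *Spp1* (13.2 and 12.7 TPM in WT, against 33.4 and 20.7 in KO), and of the other 5 markers only *Krt19* did not overlap. The part of these measures in the enzyme levels was not tested. In whole liver, fewer cells of a type and less RNA per cell cannot be told apart.

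Of 3 other genes of the lower pathway, 1 had groups that did not overlap, lower in KO (10.9% of all tested genes). *Erg28*, which encodes a scaffold that tethers the demethylation enzymes, had 83.6 and 71.1 TPM in WT, against 57.0 and 41.3 in KO (log2 fold change −0.66, adjusted *p* = 0.464). *Ebp*, the sterol isomerase, had 254.2 and 238.8 TPM in WT, against 250.9 and 237.1 in KO, with a log2 fold change of −0.01. *Lbr*, a nuclear membrane protein that also has the reductase activity of TM7SF2, had 1.16 and 2.13 TPM in WT, against 2.09 and 2.24 in KO (0.28), far below *Tm7sf2* in level.

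Upstream, the 8 listed genes of the mevalonate pathway, from *Acat2* to *Fdft1*, all had a lower mean in KO (33.3% of all tested genes), with a median of −0.73. *Mvk*, *Mvd*, *Fdps* and *Fdft1* had the KO pair below the WT pair, 4 of 8 (10.9% of all tested genes). The same 4 had an unadjusted *p* under 0.05 with a lower level in KO (2.04% of all tested genes), while 0 had an adjusted *p* under 0.05 by limma. *Mvd*, the decarboxylase, was at the bottom of the list with 3.11 and 7.95 TPM in WT, against 1.01 and 1.09 in KO (log2 fold change −1.56, SE 0.41, adjusted *p* = 0.464). *Hmgcs1*, the synthase near the start of the pathway, was at the top with −0.01 (SE 0.25). KO replicate 3 was the lowest library for 6 of these 8 genes, compared with 9 of 9 below squalene and 22.9% of all tested genes. Over the 20 listed genes of the pathway, 18 had a lower mean in KO (33.3% of all tested genes), and the median was −0.50. Groups that did not overlap were found for 8 of the 20, all lower (10.9% of all tested genes).

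Among the 7 genes of the SREBPs and their control, 2 were lower in KO without overlap (10.9% of all tested genes). Higher without overlap was 1 of the 7, *Mbtps1* at 0.27 (34.4% of all tested genes). *Srebf1* was lowest, with 58.1 and 64.3 TPM in WT, against 27.3 and 20.7 in KO (log2 fold change −1.32, SE 0.20, adjusted *p* = 0.242). *Srebf2*, which encodes the main activator of the 9 enzymes, had 8.23 and 9.07 TPM in WT, against 7.31 and 6.69 in KO, a smaller difference in which the groups did not overlap (−0.27, SE 0.21, adjusted *p* = 0.639). *Insig1*, itself a target of SREBP, had 67.1 and 134.4 TPM in WT, against 67.7 and 51.2 in KO (−0.68), while *Insig2* was at the top of the list at 0.77 (SE 0.40, adjusted *p* = 0.517). The median of the 7 was 0.03.

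SQLE and CYP51 draw electrons from cytochrome P450 oxidoreductase, and MSMO1 and SC5D from cytochrome b5. *Por*, the oxidoreductase gene, had 175.2 and 167.7 TPM in WT, against 81.8 and 81.4 in KO, with the KO libraries nearly equal at 0.476 of the WT mean (log2 fold change −1.06, SE 0.15, interval −1.45 to −0.68, unadjusted *p* = 0.000631, adjusted *p* = 0.203). *Cyb5a* had 1447 and 1673 TPM in WT, against 1351 and 1300 in KO (−0.23, SE 0.19, adjusted *p* = 0.658). The other 5 genes of this list lay between −0.11 (*Pgrmc1*) and 0.25 (*Sec14l2*). *Por*, *Cyb5a* and *Pgrmc1* were lower in KO without overlap, 3 of 7 (10.9% of all tested genes). *Sec14l2* was higher without overlap, 1 of 7 (34.4% of all tested genes). The adjusted *p* of *Pgrmc1* and *Sec14l2* was 0.829 and 0.644 by limma.

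Of 4 tested genes for ubiquitin ligases and partners that act on SQLE or other sterol enzymes, *Syvn1* alone had groups that did not overlap, higher in KO (34.4% of all tested genes). It had 12.3 and 10.2 TPM in WT, against 20.1 and 23.3 in KO (log2 fold change 0.89, SE 0.20, adjusted *p* = 0.450). *Marchf6*, the ligase for SQLE, was at the bottom of the list at 0.14. Among 7 tested genes of the sterol-sensing LXRs and their targets, 3 had groups that did not overlap, all higher in KO (34.4% of all tested genes), and the median was 0.35, with *Mylip* at the top (0.58) and *Nr1h3* at the bottom (−0.11). Of 6 tested genes that use cholesterol for esters or bile acids, *Cyp7b1* was highest (0.94, SE 0.23, adjusted *p* = 0.458) and *Cyp7a1*, the rate-limiting enzyme of bile acid synthesis, lowest (−0.39, SE 0.62, adjusted *p* = 0.824), and their median was −0.01.

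The 9 tested lipogenic targets of SREBP-1c had a median of −0.02, and their range from −2.27 (*Thrsp*) to 0.90 (*Elovl5*) was wider than that of the 9 sterol enzymes. All 7 tested genes of the fasting response had a higher mean in KO (66.7% of all tested genes), 6 of them with groups that did not overlap (34.4% of all tested genes), with a median of 0.95, *Lpin1* at the top (1.73) and *Pck1* at the bottom (0.45). Clock genes whose daily rhythm runs opposite to that of *Arntl* were lower in KO in 6 of 7 tested (33.3% of all tested genes). All 6 had groups that did not overlap (10.9% of all tested genes). *Dbp* was lowest of them with 56.8 and 41.3 TPM in WT, against 4.73 and 4.97 in KO (−3.08, SE 0.23, adjusted *p* = 0.0193 by limma), and it was the only gene of all these lists to pass the adjusted threshold. *Nr1d1* was the exception, with 33.9 and 9.92 TPM in WT, against 25.1 and 26.9 in KO (0.47, SE 0.53, adjusted *p* = 0.748). Both tested clock genes in phase with *Arntl*, *Clock* (1.26) and *Nfil3* (1.69), were higher (66.7% of all tested genes). Cholesterol synthesis in liver follows feeding and the time of day, and the part of either in the enzyme levels was not tested.

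The pattern of the 9 enzymes over the mice was also compared with that of 5814 other genes that averaged 5 TPM or more, by the Euclidean distance between log2(TPM + 1) profiles over the 4 libraries, each centred on its own mean. The 10 nearest genes to the mean profile of the 9 were *Aldh1l1* (distance 0.05), *Bcap29* (0.09), *Sdhaf4* (0.11), *Abhd14a* (0.14), *Pias4* (0.14), *Gm29216* (0.15), *Selenbp1* (0.15), *Atg101* (0.16), *Tmem176a* (0.16) and *Lyplal1* (0.17). *Aldh1l1*, a folate enzyme, had 405.9 and 489.6 TPM in WT, against 395.6 and 238.6 in KO, with the same low library. None of these 10 belongs to the pathway lists. The enzymes themselves stood between 0.27 (*Dhcr7*) and 1.02 (*Msmo1*) from their own mean profile. The 10 were picked as the nearest of 5814 genes, so their smaller distances follow from that choice. With 4 libraries a likeness of this kind is a description only.

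The second deposited table, reads counted per gene with HTSeq and scaled as CPM, held little on these enzymes. It listed 7 of the 9 at 0 throughout, although *Sc5d* had at least 94.8 TPM in each library of the other table. Such zeros were not particular to the enzymes, since among 682 genes at 100 TPM or above throughout, the CPM table held 428 at 0 in all 4 columns. The reads recovered for *Sqle* were 2 and 6 in WT and 9 and 6 in KO, and for *Lss* 0 and 0 in WT and 1 and 2 in KO. The signs for both were therefore opposite to those from TPM, at counts too low to show a difference.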

How the data were processed

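RNA-seq of total RNA from whole liver was performed on Illumina MiSeq, and samples were grouped by the genotype in their labels. The authors estimated transcript abundance with salmon on mm10 and deposited it per gene as TPM. The authors also deposited HTSeq gene counts scaled by TMM as CPM, a count-based signal from which whole reads were recovered (100% of values within 0.02 of a whole read), between 102898 and 148164 per library. Versions, aligner and strand setting are not given in the sources used here. The number of columns left unused was 0.

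log2(TPM + 1) of 9581 genes (those averaging 1 TPM or more) was fitted by genotype with limma 3.58.1 (R 4.3.3, lmFit and eBayes with trend, two-sided, Benjamini-Hochberg) after tests on simulated data. Alternatives were pseudocounts of 0.1 and 5, no filter, a mean of at least 5 TPM, upper quartile scaling, variances without moderation, the CPM table, edgeR 4.0.16 and DESeq2 1.42.0 on recovered reads, and leaving out each library. The members and gene lists were chosen with earlier results of these data known, and some genes of these pathways are not reported here. Named are the 9 members, *Usp21*, genes at the top or bottom of a list or against the rest of it or on which a count rests, and the 10 genes nearest in profile. Coordinates and shared 31-base stretches came from GENCODE (GRCm38) and promoters from RefSeq (GRCm38.p6). The *p*-values rest on the spread between mice, 2 per genotype, which limma draws towards that of other genes (prior degrees of freedom 3.62). Without this moderation *Lss* and *Msmo1* had unadjusted *p* = 0.0936 and 0.131 by limma.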

Additional observations from a re-analysis of the deposited data

How the results depend on the processing

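No paired analysis was possible because the sources used here do not say which mice shared a litter. Replicate numbers were not taken as a pairing. Across 13 alternatives 0 enzymes had an adjusted *p* under 0.05 (smallest 0.403 on TPM and 0.650 on CPM or reads), and 11 of 95 single-enzyme values changed sign. The number at least 2-fold lower was 1 with a pseudocount of 5 and 3 with one of 0.1 (*Sqle* joined at −1.10). After upper quartile scaling 5 had groups that did not overlap, with no share of all tested genes given for that scaling, and *Hsd17b7* was at −0.031. Without moderation of variances in limma 0 had an unadjusted *p* under 0.05. The CPM table gave *Sqle* 0.95 and *Lss* 3.61 (median 2.28), edgeR 0.76 and 3.67 (median 2.21) and DESeq2 0.70 and 2.99 (median 1.84), and in all 3 the counts of these 2 genes lower by mean, not overlapping and lower, at least 2-fold lower or at an unadjusted *p* under 0.05 were 0. *Lss* has 0 reads in both WT libraries, so its values there depend on the prior count and are no bound. Leaving out 1 library gave medians of −0.99 to −0.056, with 5 to 9 enzymes lower by mean and 1 to 4 at least 2-fold lower. Groups separate more easily against a single library, so counts without overlap were not compared there. Shares of all tested genes are not given for these fits. *Hsd17b7* ranged from −0.076 (without KO replicate 1) to 0.25, and *Tm7sf2* from −0.35 to 0.14, *Nsdhl* from −1.06 to 0.17 and *Sc5d* from −0.57 to 0.12 (all 3 positive without KO replicate 3). The lone library of a genotype was then assumed to vary like the other genotype. The cause of these shifts was not tested.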
